A study of Mus musculus with 14 samples.

Results

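The genes described here encode the proteins of the cytoplasmic ribosome. They were taken by name, as every entry whose symbol is Rpl or Rps followed by a number and at most one of the letters a, x, y or l, or is Rplp0, Rplp1, Rplp2 or Rpsa. Pseudogene entries, whose symbols end in -ps and a number, were left out. The rule found 80 of the 19425 genes listed, of which 49 encode proteins of the large subunit (Rpl, Rplp) and 31 proteins of the small subunit (Rps, Rpsa). The rule uses names alone.

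The series follows the production of haematopoietic stem cells (HSCs) in the mouse aorta at embryonic day 10 (E10, 28 to 32 somite pairs) and E11 (over 40 somite pairs), where endothelial cells turn into blood cells that gather in intra-aortic haematopoietic clusters (IAHCs). It holds 14 samples, sequenced with CEL-Seq, in which transcripts are tagged at the 3′ end with molecular identifiers and counted by them. Since each transcript is counted once whatever its length, levels below are not divided by gene length. Non-haemogenic endothelium (non-HE, Cdh5+ Gfi1- Gfi1b- c-kit-), haemogenic endothelium (HE, Cdh5+ Gfi1+ Gfi1b- c-kit-) and cells in endothelial-to-haematopoietic transition (EHT, Cdh5+ Gfi1+ Gfi1b- c-kit+) came from the aorta-gonad-mesonephros region of ICR embryos that carried a Gfi1 tomato and a Gfi1b GFP reporter allele in place of 1 copy of each gene. IAHC cells sorted as c-kit+CD31+ or as c-kit+, pre-HSCs (c-kit+ Cdh5+) of type I and type II, which differ in CD45, and c-kit+ yolk sac haematopoietic stem and progenitor cells (YS HSPCs) came from wild-type C57BL/6 embryos. Whole IAHCs (wIAHCs) were picked one by one from slices of C57BL/6 embryos after c-kit staining inside the aorta, and their side, ventral or dorsal, stands in the name of each library.

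A ribosome holds one copy of nearly every one of these proteins, bound to the ribosomal RNAs of its subunits. Their mRNAs are among the most abundant of a growing cell and carry a run of pyrimidines at the 5′ end, the TOP motif, through which mTOR signalling controls their translation as a group. Mutations in many of them cause Diamond-Blackfan anaemia, a failure of red cell production, and blood stem cells are sensitive to changes in the rate of protein synthesis.

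RefSeq promoter entries (GRCm38.p6) were found for 60 of the 80 members. Printed here are the 40 bases before and the 20 bases from the annotated start of the 5 members with the largest HE to EHT ratio and of the 1 member whose ratio was below 0. They are given 5′ to 3′ on the strand of the gene, with the longest run of C and T that opens with C, within 20 bases of the start, in capitals. Where 2 starts are listed, the downstream one is shown.
Rpl10a, chr17:28328525-28328584, plus strand: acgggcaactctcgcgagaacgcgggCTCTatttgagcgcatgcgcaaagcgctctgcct
Rpl19, chr11:98026884-98026943, plus strand: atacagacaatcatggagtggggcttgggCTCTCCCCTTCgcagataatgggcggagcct
Rpl18, chr7:45718031-45718090, plus strand: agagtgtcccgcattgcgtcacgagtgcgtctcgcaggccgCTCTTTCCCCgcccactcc
Rpsa, chr9:120127726-120127785, plus strand: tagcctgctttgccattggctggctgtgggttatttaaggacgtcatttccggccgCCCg
Rps2, chr17:24720023-24720082, plus strand: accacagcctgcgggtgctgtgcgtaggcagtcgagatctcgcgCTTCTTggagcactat
Rpl37, chr15:5116573-5116632, plus strand: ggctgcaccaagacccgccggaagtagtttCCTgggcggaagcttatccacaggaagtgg
The run was 11 bases long in Rpl19 and 10 in Rpl18, and 6 bases or fewer in the others. A run of at least 7 such bases was found near the start of 36 of 73 member promoters (49.3%), against 18.7% of all 32851 promoters of the table. The ETS-type motif CCGGAAG, searched on both strands of 300 bases, was found in 35.6% of member promoters and 8.86% of all. The motif TATAAA was found in 9.59% and 13.6%. These shares describe the annotated starts, which may lie some bases away from the starts used in these cells.

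At E11, the single-cell table held 575 cells of 7 samples, each with 5000 transcripts. The E10 single-cell table listed none of the members. The 102 entries it lacks in comparison with the E11 table are all entries named Rpl or Rps, so the members were not analysed here in E10 single cells. Each population is 1 sample (both types of pre-HSC came from the same one), and cells are not replicates, so single-cell populations were compared without a test. Intervals are 95% intervals that cover counting error only. Markers of endothelium and blood were for the most part distributed as the sorts would have it. Gfi1b was an exception, at 0.1522 transcripts per EHT cell, sorted as Gfi1b-, and 0.1517 per IAHC cell of both sorts. Kit was at 0.2333 per non-HE cell, sorted as c-kit-, which was below its level in EHT cells. Summed transcripts of 6 endothelial markers (Cdh5, Pecam1, Kdr, Tek, Vwf and Gja5) averaged 27 per non-HE cell, 36.8 per HE cell and 12.6 per EHT cell, against 0.674 per YS HSPC, and Myb and Ptprc were at 0 in non-HE and HE cells. Summed transcripts of 7 mesenchyme markers (Pdgfrb, Col3a1, Cxcl12, Crabp1, Epha7, Ptprd and Sox11) averaged 0.881 per c-kit+CD31+ and 1.61 per c-kit+ IAHC cell, with at most 12 and 18 in a cell. A purification rule was applied here to these counts of 5000 transcripts per cell. It asked for more than 1 Gpr56 transcript and at most 2 of each of 11 genes of other cell types. It kept 187 of the 290 IAHC cells. The authors describe their E11 IAHC cells as already purified on Gpr56, so the cells not kept here are not thereby contaminants.

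Ribosomal protein transcripts made up the smallest share of the transcriptome in endothelium, a larger one in EHT cells and the largest in pre-HSCs, IAHC cells and YS HSPCs. They were 13.2% of all transcripts in non-HE cells (95% exact interval 13.1 to 13.4, 30 cells) and 13.2% in HE cells (13.1 to 13.4, 46 cells). In EHT cells the share was 17.97% (17.8 to 18.1, 46 cells). It was 22.8% in type I pre-HSCs (22.68 to 22.98, 62 cells) and 23.2% in type II pre-HSCs (23.02 to 23.34, 55 cells). In IAHC cells it was 21.3% after the c-kit+CD31+ sort (21.2 to 21.4, 201 cells) and 24.2% after the c-kit+ sort (24.1 to 24.3, 89 cells), and in YS HSPCs 23.6% (23.5 to 23.8, 46 cells). Among the IAHC cells kept by the purification rule above it was 21.4% and 25.3%. In transcripts per cell, the members together gave 661 in non-HE cells and 1209 in c-kit+ IAHC cells. Since every cell was set to the same total, a higher share leaves fewer transcripts for all other genes, from 4339 per non-HE cell to 3791 per c-kit+ IAHC cell. Large and small subunit genes moved together, with 1.23 to 1.28 large subunit transcripts for each small subunit transcript in every population.

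**Figure D1:**
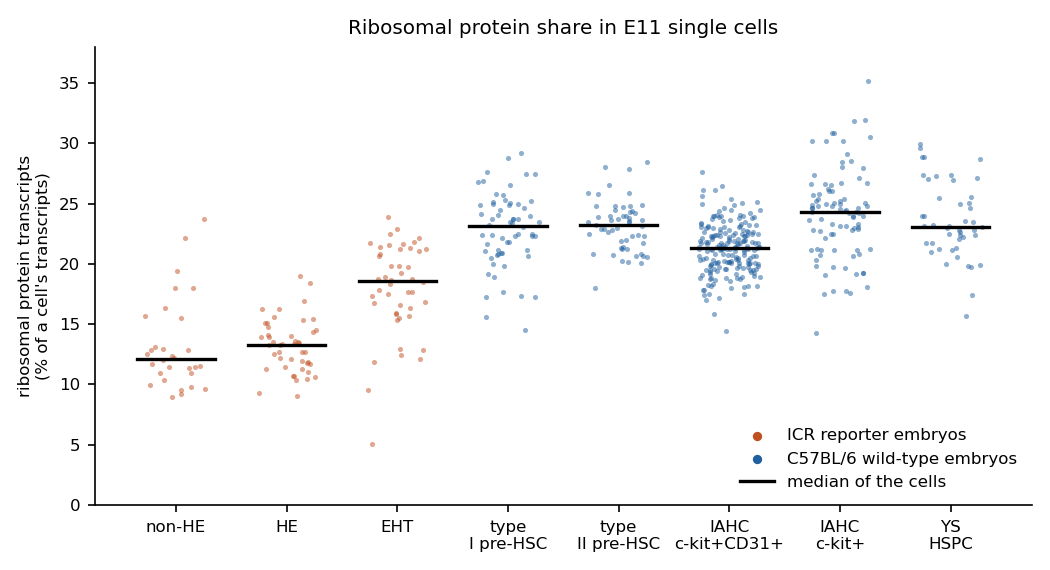
Share of ribosomal protein transcripts in each of 575 E11 cells (% of the cell's 5000 transcripts), by population, with the median of the cells as a black line and the strain of the embryos in colour. Medians were 12.1% in non-HE, 13.3% in HE and 18.6% in EHT cells and 21.4% to 24.3% in the 5 C57BL/6 populations.

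The ranges of single cells overlapped between HE and EHT cells. HE cells ran from 9.06% to 19.02%, with quartiles at 11.7% and 14.5%, and EHT cells from 5.04% to 23.9%, with quartiles at 16.1% and 21.2%. Transcripts of 2 or more of 7 macrophage markers were counted in 4 EHT cells, whose shares were 5.04%, 9.58%, 20.7% and 20.8%. The first 2 had the lowest shares of all 46 EHT cells, and without the 4 the EHT share was 18.3%. All 3 populations up to EHT were taken from ICR embryos. The step from EHT cells to pre-HSCs and IAHC cells is also a step from ICR to C57BL/6 embryos and to other sorted sets, so population, strain and set cannot be told apart there. HE and EHT cells are likewise 1 sorted set each, so population and set cannot be told apart between them. Spread between sorted sets of 1 population bears on the C57BL/6 populations. The 4 c-kit+CD31+ sets ran from 20.8% to 21.9%. Of the 5 c-kit+ sets, 4 ran from 23.02% to 25.9% and the other, of 7 cells, stood at 18.6%. All c-kit+CD31+ sets thus lay below the single YS HSPC set and below those 4 c-kit+ sets. The 3 sets of type I pre-HSCs ran from 21.2% to 25.7% and the 3 of type II from 21.8% to 24.4%. The 2 non-HE sets, named for different ages within E11, stood at 12.7% (11 cells) and 13.6% (19 cells), and HE, EHT and YS HSPCs are 1 set each.

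The members differed in level by orders of magnitude. Averaged over the 8 populations, 63 members had at least 10 transcripts per cell, 10 had 1 to 10, and 7 had fewer than 1. The 10 highest held 22.9% of member transcripts, and Rpsa, Rpl41, Rps12, Rplp1, Rps2, Rplp0, Rpl27a and Rps20 were among them. Rpsa, the laminin receptor precursor that sits on the small subunit, had the highest mean level. It was at 14.3 transcripts per cell in non-HE, 12.7 in HE, 20.1 in EHT, 36.2 in type I and 38.6 in type II pre-HSCs, 33.98 in c-kit+CD31+ and 48.3 in c-kit+ IAHC cells and 35.8 in YS HSPCs. All 3 ICR populations lay below all 5 C57BL/6 populations, and the 9 IAHC sets ran from 28.0 to 61.1. Rplp0, Rplp1 and Rplp2 form the stalk of the large subunit that recruits elongation factors, with Rplp1 and Rplp2 as partners. Rplp1 went from 10.1 transcripts per HE cell to 34.02 per YS HSPC. Rplp2 stood at 4.33 per HE cell, 5.44 per EHT cell and 2.097 per type I pre-HSC, but at 4.65 per YS HSPC, above its HE level. In 52 of the 80 members a transcript was counted in each of the 575 cells.

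Some members have a paralogue with a narrower pattern. Rpl3l, a muscle paralogue of Rpl3, and Rpl10l, a testis paralogue of Rpl10, were at 0 in every cell, while Rpl3 averaged 11.9 and Rpl10 13.9 transcripts per cell. Rpl39l, the male germ cell paralogue of Rpl39, was counted in 2 of 89 c-kit+ IAHC cells and 1 of 46 YS HSPCs, and Rpl39 averaged 9.85 per cell. Rps4x averaged 13.98 per cell. Rps27 had only 0.203 transcripts per cell and its p53-regulated paralogue Rps27l 1.94. Rpl26 (0.0996), Rpl30 (0.208) and Rpl34 (0.506) were likewise far below the other constitutive members. Several members share sequence with listed pseudogene entries, and how reads that fit both were assigned is not given in the sources used here. Rpl31-ps12 had 9.07 to 16.9 transcripts per cell, above the 4.35 to 8.59 of Rpl31 itself. The values of Rpl31, Rpl34, Rplp2, Rps15a and Rps19, each with such an entry, are uncertain for that reason.

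**Figure D2:**
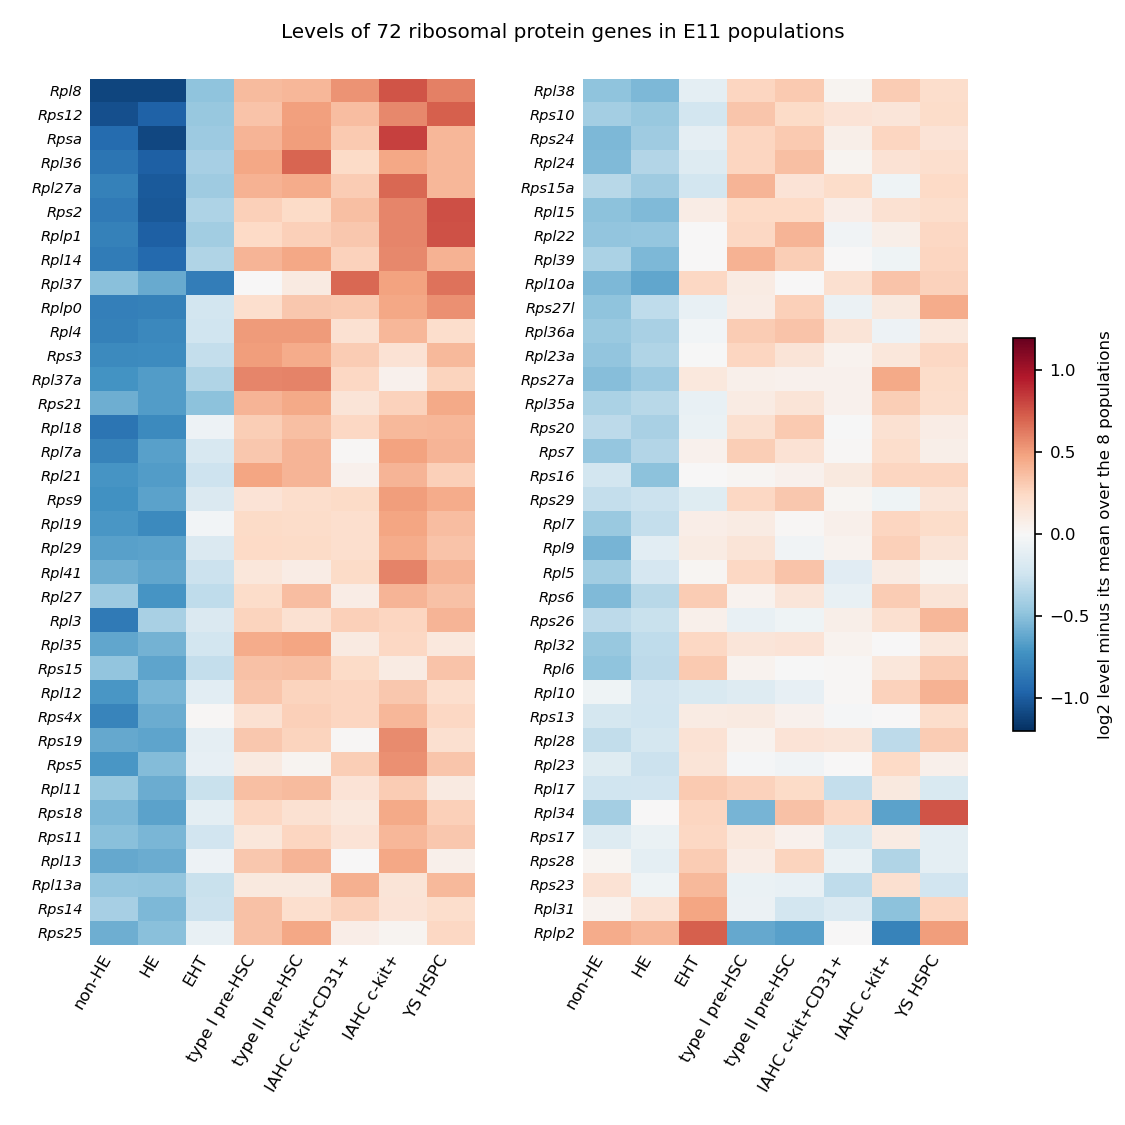
Levels of 72 of the 74 members with a mean of at least 0.5 transcripts per cell in the 8 E11 populations, as log2 of (transcripts per cell plus 0.1) minus the gene's own mean over the populations, ordered by the difference between C57BL/6 and ICR populations. Blue columns on the left of both blocks are non-HE and HE cells, in which 65 of the 74 members had their lowest level, and Rplp2, Rpl31 and Rps23 at the end run the other way.

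Steps between populations were described by the log2 ratio of mean transcripts per cell, with 0.1 added to both means, over genes whose mean reached 0.5 in 1 of the 2 populations. A ratio of at least 1.5-fold was counted. From non-HE to HE cells, 0 of 73 members were higher and 0 lower by that measure, where 12.6% of all 2551 genes were higher and 12.5% lower. The member median was 0.01, and the ratios ran from -0.27 (Rps16) to 0.47 (Rpl3). The other members with the largest positive ratios were Rpl9, Rpl5, Rps6 and Rps4x (0.20 to 0.43), and those with the largest negative ones Rpl27, Rps23, Rpl27a and Rpl10 (-0.27 to -0.18).

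From HE to EHT cells, nearly the whole family was higher by a similar small amount. Of 74 members, 73 had a ratio above 0 (46.3% of all 2554 genes did), with a median of 0.42, while the median of all genes was -0.05. Both subunits had the same median, 0.42. Few passed the 1.5-fold limit: 11 members (14.9%) were higher, close to the 15.9% of all genes, and 0 were lower, where 24.5% of all genes were. The closeness depends on the pseudocount: with 0.5 in place of 0.1, 10 members (13.5%) were higher, against 8.849% of all genes. Relative to the transcripts of genes outside the family, 26 members (35.1%) were higher, against 511 of 2610 genes. Rpl10a had the largest ratio, from 8.54 transcripts per HE cell (7.72 to 9.43) to 15.7 per EHT cell (14.5 to 16.8), a log2 ratio of 0.87. Rpl19 went from 7.24 to 12.04, Rpl18 from 6.44 to 10.54, Rpsa from 12.7 to 20.1 and Rps2 from 9.63 to 15.2 transcripts per cell, with log2 ratios of 0.65 to 0.73. Rplp0 (0.59) lay just inside the limit and Rpl27a (0.58) just outside. The smallest ratios belonged to Rpl24, Rps21, Rps29 and Rpl10 (0.05 to 0.19), and Rpl37 was the 1 member below 0, at 2.43 and 2.07 transcripts per cell, with counting intervals that overlap. Endothelial marker transcripts went from 36.8 to 12.6 per cell over this step while 6 haematopoietic markers (Runx1, Ptprc, Kit, Myb, Gfi1 and Sfpi1) went from 0.565 to 6.15, and how far the mix of cell types sets the ratios was not tested.

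**Figure D3:**
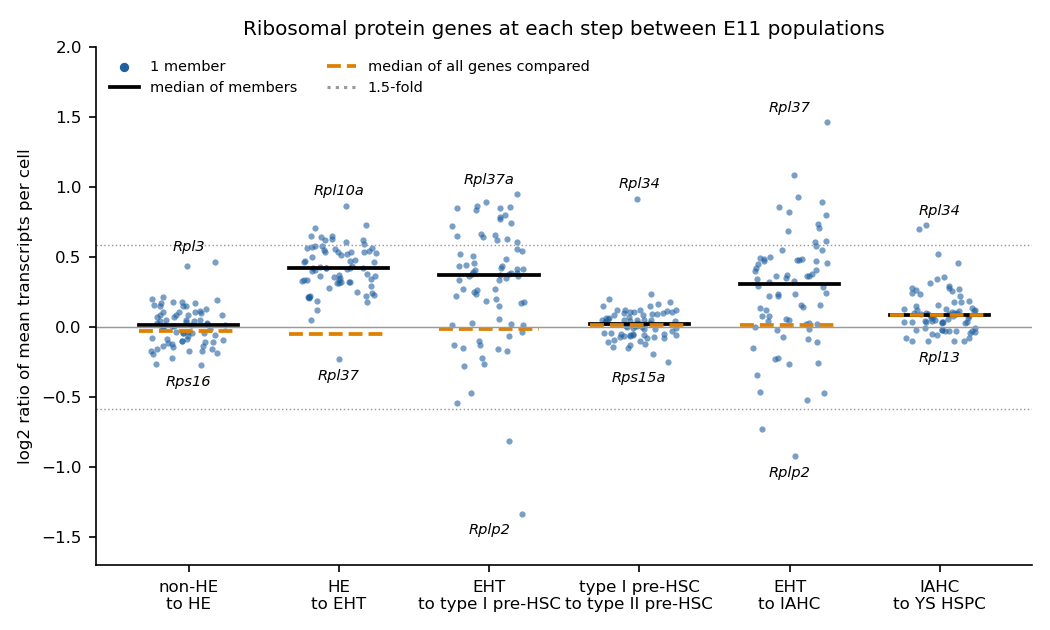
Log2 ratio of mean transcripts per cell for each member (points) at 6 steps between E11 populations, with the median of the members (black), the median of all genes compared (orange, dashed) and the 1.5-fold limits (dotted). The members lie above all genes as a block from HE to EHT, spread widely at both steps that leave EHT cells, and centre on all genes at the others.

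The steps that leave EHT cells spread the members more widely. From EHT cells to type I pre-HSCs, 19 of 74 members (25.7%) were higher, against 17.1% of all 2330 genes, and 2 were lower (2.70%), against 21.5%. The median was 0.37. Rpl37a, a zinc-finger protein of the large subunit, went from 10.96 to 21.2 transcripts per cell, and Rps21, Rpl36, Rpl8 and Rpl27a had log2 ratios of 0.85 to 0.90. Rplp2 had the lowest ratio of all members, -1.33, followed by Rpl34 (-0.82), Rpl31 (-0.54), Rps23 (-0.47) and Rpl6 (-0.28). With each sorted set of type I pre-HSCs left out, 13 to 26 members were higher, counts given without the share of all genes. Over this step the summed endothelial markers went from 12.6 to 7.42 transcripts per cell and erythroid markers from 0.087 to 3.58, and their part in the ratios was not tested. From EHT to IAHC cells of both sorts, 12 members (16.2%) were higher, against 18.6% of all 2352 genes, and 2 were lower, against 22.3%, with a median of 0.30. The higher count is near that of all genes. With c-kit+ cells alone it was 22 and with c-kit+CD31+ cells alone 13, and 4 members were lower with each. The shares of all genes for either sort alone are not given here, so these counts cannot be set against them. From the c-kit+CD31+ to the c-kit+ sort, 0 members were higher (3.86% of 2049 genes were) and 2 lower, Rpl34 and Rplp2 (7.22% of genes were).

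Rpl37, part of the large subunit near the exit tunnel, had the widest ratio from EHT to IAHC cells. It stood at 2.63 transcripts per non-HE, 2.43 per HE, 2.07 per EHT, 3.77 per type I and 4.07 per type II pre-HSC, 6.12 per c-kit+CD31+ and 5.28 per c-kit+ IAHC cell and 5.98 per YS HSPC. The log2 ratio from EHT to IAHC cells was 1.46, and the lowest of the 9 IAHC sets (4.57) lay above the EHT value. In type I pre-HSCs the 3 sets ran from 2.13 to 6.40, so that the set decided on which side of the IAHC level this population fell. Rpl8 (1.09), Rpsa (0.93), Rps12 (0.89) and Rpl27a (0.86) came next. Rplp2 (-0.92), Rpl31 (-0.73), Rps23 (-0.52), Rps28 (-0.47) and Rpl17 (-0.47) were the lowest. Rplp2 ran from 1.19 to 4.38 transcripts per cell over the IAHC sets, all below the 5.44 of EHT cells. Rpl31 ran from 3.06 to 6.05, also below the 8.59 of EHT cells. A pair of pseudogene entries differed far more over the same step: Rpl34-ps1 went from 0.0652 to 1.88 transcripts per cell and Rps15a-ps4 from 0.413 to 3.18. Both were also low in non-HE and HE cells, with Rpl34-ps1 at 0.0333 and 0.0217. Rpl34-ps1 was also at 0.0667, 0.0800 and 0.125 in 3 of the 5 c-kit+ sets, against 1.115 to 4.64 in the other C57BL/6 sets. The part of strain, set and read assignment in these differences was not tested.

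Type I and type II pre-HSCs differed little. Of 74 members, 1 was higher (5.53% of 2061 genes were) and 0 were lower (6.55% of genes were). The 1 member was Rpl34, at 0.290 and 0.636 transcripts per cell, that is 18 transcripts in 62 cells and 35 in 55. It did not pass the limit with a pseudocount of 0.5 or after thinning to 3000 transcripts per cell. In sets of both types that carry the same number in their names, Rpl34 stood at 0.125 and 0.6, 0.2059 and 0.44, and 0.5 and 0.9 transcripts per type I and type II cell, higher in type II in all 3 pairs. The ribosomal protein shares of the same pairs were 22.4% and 24.4%, 21.2% and 21.8%, and 25.7% and 24.3%, in both directions. Beyond Rpl34 the ratios ran from -0.25 (Rps15a, lower in type II in all 3 pairs) to 0.23 (Rpl36), with Rps27l, Rps28 and Rpl22 next above 0 and Rpl9, Rpl31, Rps14 and Rps7 next below. From IAHC cells to YS HSPCs, 2 members were higher (2.70%, against 10.5% of 2130 genes), Rpl34 (0.73) and Rplp2 (0.70), and 0 lower (against 12.4%). With c-kit+CD31+ cells alone 0 were higher and with c-kit+ cells alone 4, and with a pseudocount of 0.5 Rplp2 was the 1 that remained. No share of all genes is given for these counts. The member median, 0.09, equalled that of all genes. Rpl31, Rps27l and Rplp1 followed (0.36 to 0.52), and Rpl13, Rps23, Rpl11 and Rpsa were lowest, each at -0.10.

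Of the 16 members mutated in Diamond-Blackfan anaemia, 14 were high enough to compare. None of the 6 steps moved more than 1 of them past 1.5-fold: Rpl15 from HE to EHT cells and Rpl11, which with Rpl5 binds Mdm2, from EHT cells to type I pre-HSCs, steps at which 15.9% and 17.1% of all genes were higher. Rps19, the gene most often mutated, went from 10.7 transcripts per HE cell to 15.4 per EHT cell and 20.8 per type I pre-HSC. Their median ratio from HE to EHT cells was 0.33, below the 0.42 of the members together.

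Other mRNAs of the translation apparatus, not members, were read from a list of 20 symbols, of which 19 were listed and 18 high enough. From HE to EHT cells, 5 of 18 were higher (Eef1b2, Eef1d, Pabpc1, Npm1 and Nap1l1), where 15.9% of all genes were, and 0 lower, where 24.5% were, with a median of 0.43. From EHT to IAHC cells, 4 of 18 were higher and 2 lower, where 18.6% and 22.3% of all genes were, so the higher count is near that of all genes. Eef2, the elongation factor that moves the ribosome along the mRNA, went from 4.87 transcripts per EHT cell to 11.8 per IAHC cell, and Gnb2l1, the scaffold protein Rack1 of the small subunit, from 11.8 to 20.1. Tpt1, also a TOP mRNA, ran against the members, from 26.3 per HE cell to 13.5 per IAHC cell and 11 per YS HSPC. Among ribosomal protein genes that the name rule left out, Rps3a1 went from 9.17 per HE cell to 15.2 per EHT cell and 23.3 per IAHC cell. Rpl22l1, the paralogue of Rpl22, went from 3.72 per EHT cell to 1.745 per IAHC cell (log2 ratio -1.05), while Rpl22 was at 5.85 and 5.78.

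Within a sorted set, the members varied together among cells. In the 13 sets of at least 20 cells, the variance of a single member was close to its mean, with a median ratio of 1.08 to 1.72 over the 73 members with at least 1 transcript per cell, and genes outside the family in the same range of levels had medians of 1.095 to 1.463. The variance of the members' sum was 4.66 to 40.95 times its mean. Had the members varied independently, the sum of their variances would have given 1.14 to 1.77. The EHT set had the highest value, with a coefficient of variation of the sum of 21.3%, and a type II pre-HSC set the lowest, 6.55%. Without the 4 EHT cells with 2 or more macrophage markers, the EHT variance was 26.8 times the mean, just below the 27.2 of a c-kit+ IAHC set, and the coefficient of variation 17.1%.

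wIAHCs gave the comparison with replicates, of stage on each side and of side at each stage. Of 109 libraries, 57 held at least 5000 transcripts (at E10 21 from the ventral and 7 from the dorsal side, at E11 17 and 12), and these held 5099 to 115328 transcripts. wIAHCs of 1 embryo cannot be recognised, so p-values measure the spread between wIAHCs. E11 libraries fall into a first and a second collection set by name, with 4 and 13 ventral and 6 and 6 dorsal wIAHCs. The second set held haemoglobin transcripts at 0.192% to 27.5% of all, against at most 0.174% in the first, and almost no spike-ins. The 6 endothelial markers made up 0.0732% to 0.178% of transcripts in the first E11 dorsal set, above the 0.0108% to 0.0652% of E10 dorsal wIAHCs. In the second E11 dorsal set they ran from 0% to 0.153%. The part of these markers in the stage changes was not tested. Stage cannot be told apart from collection beyond what the E11 sets show.

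The ribosomal protein share overlapped between all groups. It ran from 15.8% to 26.6% (median 19.17%) in E10 ventral, 17.4% to 26.7% (median 19.9%) in E10 dorsal, 14.7% to 23.4% in E11 ventral and 13.7% to 22.9% (median 17.6%) in E11 dorsal wIAHCs. Within E11, the medians were 19.01% ventral and 16.8% dorsal in the first set and 20.7% and 20.04% in the second. With haemoglobin transcripts left out of the total, the second set's medians were 21.1% and 22.2%.

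**Figure D4:**
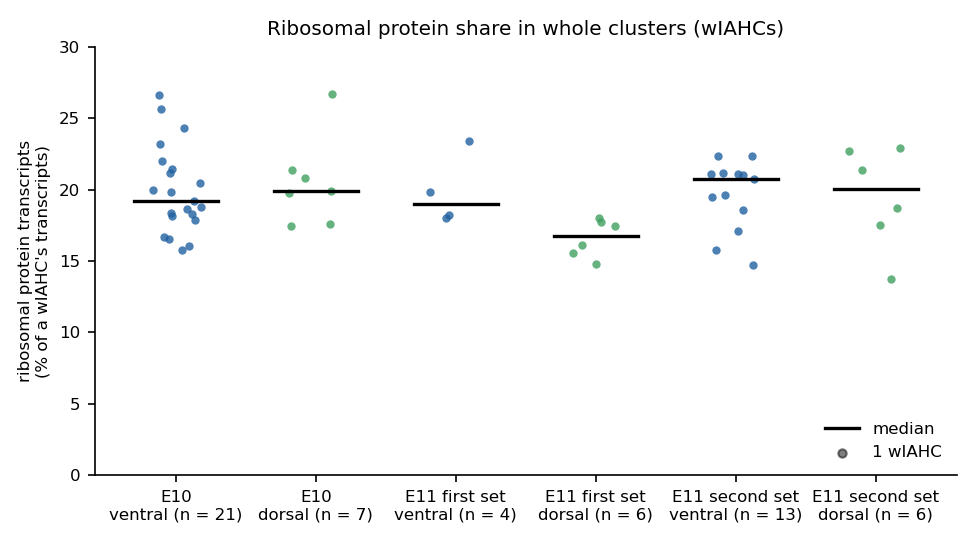
Share of ribosomal protein transcripts (% of all transcripts) in each of 57 wIAHCs, by stage, side and E11 collection set, with the median as a black line. Medians lie between 16.8% and 20.7%, and the lowest median is that of the first E11 dorsal set.

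Individual members differed between stages on the ventral side. Of 260 genes tested with edgeR's quasi-likelihood test, 73 were members. From E10 to E11, 18 members rose (24.7%, against 18.1% of all genes tested) and 4 fell (5.48%, against 13.1%) at an adjusted p of 0.05, with a median log2 change of 0.14 over the 73 and 0.00 over all 260. The 2 lowest adjusted p-values belonged to small subunit genes. Rps29, a zinc-finger protein, had 14.5 to 97.7 (median 48.2) transcripts per 10000 in E10 and 58.8 to 106.8 (median 88.1) in E11 ventral wIAHCs, with a log2 change of 0.76 ± 0.14 (SE, adjusted p = 1.83e-05 by edgeR). Rps15a had 6.96 to 35.03 (median 23.4) and 22.2 to 62.0 (median 40.2), a change of 0.69 ± 0.13 (adjusted p = 1.83e-05 by edgeR). The groups overlap for both genes, and the E11 median of Rps15a lay above the highest E10 value. Rpl36, Rps28 and Rps10 rose by 0.53 to 0.72 and Rps21, Rpl39, Rpl21 and Rpl27a by 0.29 to 0.51. Rps19, Rpl28, Rpl37a, Rpl17, Rpl15, Rps14, Rps13 and Rps18 rose by 0.26 to 0.45.

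The 4 that fell were large subunit genes. Rpl4 had 54.7 to 272.2 (median 92.1) transcripts per 10000 in E10 and 42.1 to 104.2 (median 74.3) in E11 ventral wIAHCs, a change of -0.58 ± 0.15 (adjusted p = 0.00213 by edgeR). Rpl37 had medians of 33.9 and 21.8 (-0.53 ± 0.16), Rpl31 of 40.9 and 32.6 (-0.35 ± 0.13) and Rpl10, which is needed for subunit joining, of 60.6 and 46.8 (-0.27 ± 0.10). Collection set moved with these calls. Rpl31 and Rpl10 were called with neither E11 set alone (adjusted p = 0.0771 to 0.257 by edgeR). They were also not called at a minimum depth of 2000 or 10000 transcripts, with scaling factors taken without the members or with no filter. With the first E11 set alone against E10, 4 members rose (Rps15a, Rps29, Rpl39 and Rpl27a; 5.48%, against 8.28% of all genes tested) and 1 fell, and Rpl37 changed by -0.01, Rpl21 by -0.05 and Rpl28 by -0.14. With the second set alone, 22 rose (30.1%, against 47 of 248 genes tested) and 3 fell, and Rpl37 changed by -0.81. Rps15a and Rps29 were the 2 members called with either set alone. Neither was called with no filter (adjusted p = 0.198 and 0.0689 by edgeR), and Rps15a was not called with factors taken before the filter (0.0595). The calls also rest on scaling to the genes that passed the filter: with library sizes alone 6 rose (8.22%) and 8 fell, where 30 and 53 of 260 genes tested did, and with scaling factors taken before the filter 3 rose (4.11%, against 8.24% of all genes tested) and 4 fell (5.48%, against 15.6%), where the median of all genes tested shifted to -0.12 and -0.22. With either, as with the first set alone, members rose at a lower share than all genes tested. Among wIAHCs with haemoglobin at most 5% of transcripts, 13 members rose (17.8%, against 17.2% of all genes tested) and 5 fell (6.85%, against 14.5%). Rpl28, Rpl17, Rpl15, Rps13 and Rps18 lost their calls (adjusted p = 0.0555 to 0.234 by edgeR).

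On the dorsal side, with fewer wIAHCs, 2 members rose (2.74%, against 7.31% of all genes tested) and 1 fell (1.92% of all genes tested did). Rps15a rose as on the ventral side, from 8.54 to 37.4 (median 24.04) transcripts per 10000 at E10 to 32.8 to 63.6 (median 45.6) at E11, a change of 0.90 ± 0.20 (adjusted p = 0.00183 by edgeR). Rpsa rose by 0.63 ± 0.21 (adjusted p = 0.0425), from a median of 129.7 to 196.5. This call was lost among wIAHCs with haemoglobin at most 5% (adjusted p = 0.0595 by edgeR), at a minimum depth of 2000 (0.0664) or 10000 (0.648) transcripts, with library sizes alone (0.164), with the first E11 set alone (0.289), with factors taken before the filter (0.892) and with no filter (1), and kept with DESeq2 (0.0095). Rplp2 fell by 1.101 on the log2 scale (SE 0.28, adjusted p = 0.00512 by edgeR), from a median of 28.97 to one of 13.8. The highest E11 value was 27.3 and 1 of 12 E11 wIAHCs was at 0, so the groups overlap. Leaving out the second set kept Rps15a (0.81) and Rplp2 (-1.62) past the threshold, and leaving out the first kept Rps15a (1.01) and Rpsa (0.84), so that Rps15a alone held in both. Rps15a was not called with factors taken before the filter (0.30, adjusted p = 0.441 by edgeR), at a depth of 10000 (0.86, 0.11) or with no filter (0.31, 0.718), and Rplp2 not at a depth of 2000 (-0.76, 0.0673) or 10000 (-1.36, 0.0579), the latter a larger change with fewer wIAHCs. With factors taken before the filter, 34 members fell (46.6%, against 30.9% of all genes tested) and 0 rose, with a median of all genes tested of -0.57. With the same factors, 10 members were higher in ventral than in dorsal wIAHCs at E11 (13.7%, against 4.41% of all genes tested), where the median of all genes tested shifted to 0.44.

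**Figure D5:**
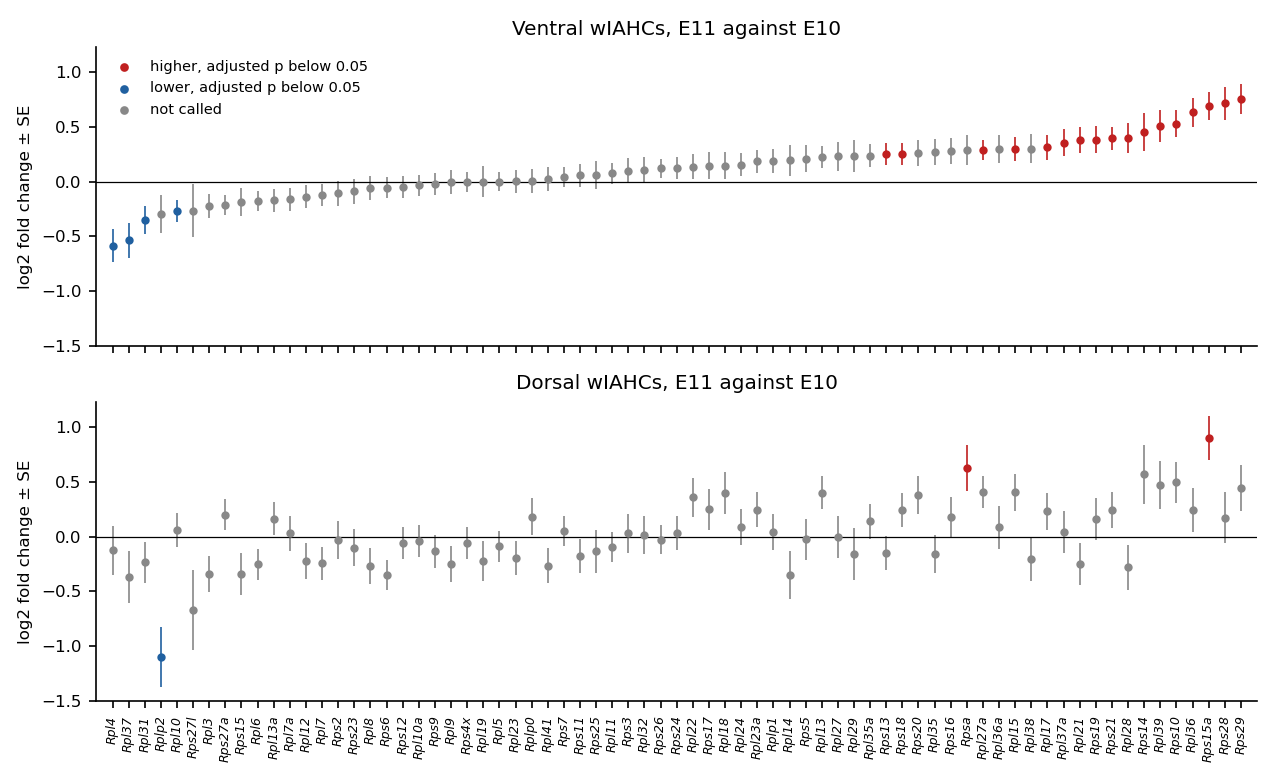
Log2 fold change of E11 against E10 with its SE for 71 of the 73 members tested, in ventral (top) and dorsal (bottom) wIAHCs, in the order of the ventral values, with members at an adjusted p below 0.05 by edgeR in colour. Of those drawn, 17 rose and 4 fell on the ventral side, and on the dorsal side Rps15a and Rpsa rose and Rplp2 fell.

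Side gave no calls among the members with scaling after the filter. Ventral against dorsal gave 0 of 73 members at E10 (0% of all genes tested) and 0 at E11 (0%) with edgeR and with DESeq2, and 2 and 7 members had an unadjusted p under 0.05. The interaction of stage and side likewise gave 0 (0% of all genes tested) with both tools, with 8 members at an unadjusted p under 0.05, so the ventral and dorsal stage changes were not shown to differ. Between the E11 collection sets, with side in the fit, 17 of 72 members were higher in the second (23.6%, against 13.2% of 167 genes tested) and 3 lower (4.17%, against 9.58%). Rpl36 (0.65 ± 0.10), Rps10 (0.59 ± 0.11), Rpl14 (0.69 ± 0.15) and Rps16 (0.61 ± 0.14) were the highest by adjusted p, and Rpl37 (-0.83 ± 0.19), Rpl4 (-0.47 ± 0.13) and Rps23 (-0.36 ± 0.11) the lower ones. Of the 14 Diamond-Blackfan genes tested, 5 rose on the ventral side (Rpl15, Rps10, Rps19, Rps28 and Rps29) and 0 fell, where 18.1% of all genes tested and 24.7% of members rose and 13.1% and 5.48% fell, and 0 were called on the dorsal side. With the first E11 set alone Rps29 was the 1 of these 5 still called (adjusted p = 0.244 to 0.429 by edgeR for the others). With library sizes alone Rpl15 and Rps19 were not called (0.241 and 0.113), and with haemoglobin at most 5% Rpl15 was not (0.0555). At a depth of 10000 Rpl15 and Rps19 were not called, with factors taken before the filter Rps28 and Rps29 alone were, and with no filter none of the 5 was. Of 13 other translation genes tested, Eef2 rose and Naca and Npm1 fell on the ventral side. Among ribosomal protein genes that the name rule left out, 5 were tested. On the ventral side 1 of them rose and 1 fell, where 18.1% and 13.1% of all genes tested did. The one that fell was Rps3a1, of the small subunit (-0.37 ± 0.10, adjusted p = 0.00212 by edgeR).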

How the data were processed

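The authors aligned CEL-Seq reads (BWA 0.6.2-r126 and the mm10 build are named in the submitters' processing notes) and deposited estimated counts of transcripts. In the E11 single-cell table these expected counts had been down-sampled to a common total and raised by 0.1, which was taken off. In the wIAHC table they had been corrected for UMI collisions and not scaled, and were rounded for testing. With the correction undone, 1 of 322398 values was not a whole UMI count within 0.01, at 255.5 of 256 possible UMIs. Every column was assigned to a sample from its name, and 0 were left over.

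Members and lists were chosen with earlier results of these data known. Steps planned for E10 single cells could not be made, and levels are means over 8 E11 populations in place of 12. By rule, leaving out a few genes that are not reported here, the text names the 10 highest members, the 5 largest ratios each way at each step, partners, and members called in wIAHCs. Single-cell populations had no test. wIAHCs with at least 5000 transcripts were tested with edgeR 4.0.16 (R 4.3.3) by filterByExpr, TMM and the quasi-likelihood test over 4 groups, with Benjamini-Hochberg adjustment. A first fit took TMM factors before the filter. After its calls had been seen, the usual order, filter first, was made the main one, and both are reported. On simulated data the fit was tested, and DESeq2 1.42.0 was the second tool. Sorted sets, cell filters, depth, scaling and collection sets were varied. Analyses used Python 3.11.15, pandas 2.3.3 and scipy 1.17.1.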

Additional observations from a re-analysis of the deposited data

Results flagged for a closer look

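In E10 dorsal wIAHCs, 1 of 7 libraries stood apart in its ribosomal protein share, at 26.7%, where the next was at 21.4% and the lowest at 17.4%. The gap was 0.572 of the range, just over the limit that Dixon's test sets for 7 samples. This was 1 of 4 measures looked at in this group in that way, and chance alone marks about 1 in 20.

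Entries for pseudogenes, which the name rule leaves out, were well above the limit that a count of 0 allows (0.0103 transcripts per cell in 290 IAHC cells). In IAHC cells of both sorts, Rpl31-ps12 had 13.7, Rps19-ps3 6.62, Rps15a-ps6 3.40, Rps15a-ps4 3.18 and Rpl34-ps1 1.88 transcripts per cell. In EHT cells the same entries had 11.4, 6.57, 5.98, 0.413 and 0.0652.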

How the results depend on the processing

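No paired analysis was possible because the wIAHC libraries, the only ones tested, carry running numbers that no label ties to a shared embryo or day, and the single-cell results come from no test. Type I and type II pre-HSC sets with the same number, 3 pairs from 1 GEO sample set side by side after seeing the data, had log2 ratios of shares of 0.123, 0.036 and -0.079. With 5 ribosomal protein entries that the name rule leaves out added, shares were 13.73% in HE, 18.49% in EHT, 21.94% in c-kit+CD31+ IAHC cells and 24.38% in YS HSPCs. Removing cells with at least 4 of 7 macrophage markers removed 0 cells. Removing the 25 cells with at least 2, chosen after seeing the data, gave EHT 18.34% and a log2 ratio of the HE to EHT shares of 0.47. Left out one sorted set at a time, shares ran over 12.67 to 13.55% (non-HE), 21.46 to 24.77% (type I), 22.52 to 24.36% (type II), 21.14 to 21.46% (c-kit+CD31+) and 23.51 to 24.66% (c-kit+). The log2 ratios of shares ran over -0.033 to 0.064 (non-HE to HE), 0.256 to 0.463 (EHT to type I), -0.095 to 0.111 (type I to type II), 0.281 to 0.323 (EHT to IAHC) and 0.072 to 0.114 (IAHC to YS HSPC). Members higher ran over 0 to 1, 13 to 26, 0 to 2, 11 to 13 and 2 to 2 at these steps, and members lower over 2 to 3 from EHT cells to type I pre-HSCs and to IAHC cells and 0 to 0 at the others.

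At a fold of 2, members higher were 0 from HE to EHT, 0 from EHT to type I (1 lower), 0 from type I to type II, 2 from EHT to IAHC (0 lower) and 0 from IAHC to YS HSPC. Relative to the transcripts of other genes, 26 were higher from HE to EHT, where 511 of 2610 genes were and the median of all genes moved from -0.05 to 0.035. With a pseudocount of 0.5, 1 was lower from EHT to type I, 0 higher from type I to type II and 1 higher from IAHC to YS HSPC. Thinned to 3000 transcripts, 1 was lower from EHT to type I and 0 higher from type I to type II, and with a minimum of 0.2 the latter was 2. With c-kit+CD31+ cells alone, 4 were lower from EHT to IAHC (5.41%, against 21.75%) and 0 higher from IAHC to YS HSPC (against 11.41%). With c-kit+ cells alone, 22 were higher (29.7%, against 20.03%) and 4 lower (5.41%, against 25.41%) from EHT to IAHC. From IAHC to YS HSPC, 4 were then higher (5.41%, against 13.44%). The counts with a sorted set left out are given without the share of all genes. Those counts show how the members depend on the sorted set and cannot be set against all genes.

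In ventral wIAHCs, members that rose and fell numbered 3 and 4 with TMM before the filter (added after seeing the data), 6 and 8 with library sizes alone, 1 and 1 with no filter, 11 and 1 at a depth of 10000, 4 and 1 with the first E11 set alone, 13 and 5 with haemoglobin at most 5%, and 23 and 2 with TMM without members. With the first set alone Rpl21 (-0.051) and Rpl28 (-0.141) reversed. In dorsal wIAHCs they numbered 6 and 1 with DESeq2, 0 and 34 with TMM before the filter, 1 and 7 with library sizes alone, 0 and 3 with no filter, 4 and 0 at a depth of 2000, 0 and 0 at a depth of 10000, 1 and 1 with haemoglobin at most 5%, 1 and 1 with the first set and 5 and 1 with the second. On the ventral side, 184 of 13627 genes tested rose with no filter, and 71 of 490 rose and 61 fell at a depth of 10000. Members rose at close to these shares (1 of 79 and 11 of 73). With TMM without members 55 of 260 genes rose, a lower share than of members (23 of 73). In each dorsal setting listed, members rose at a lower share than all genes tested. Members fell at a higher share than all genes with TMM before the filter and with no filter, and at a lower one in the others. Between sides at E11, TMM before the filter gave 10 higher. The causes were not tested. Depth limits the test to 260 genes.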

Other observations

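In the E11 single-cell table the ribosomal protein genes take part of each cell's 5000 transcripts, so the transcripts left for all other genes differ by population, from 4339 per non-HE cell and 4102 per EHT cell to 3858 per type I pre-HSC and 3791 per c-kit+ IAHC cell. The E10 single-cell table lists 19322 genes, none of them named Rpl or Rps, so the 2 stages are on different bases for genes outside the family.

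Rpl7l1, a paralogue of Rpl7, was at 0.435 transcripts per HE cell and 1.13 per EHT cell (log2 ratio 1.202), more than any member at that step, and was singled out after its values were seen. Rpl36al went from 2.28 per EHT cell to 3.40 per IAHC cell and 5.11 per YS HSPC, while Rpl36a was at 8.39, 9.15 and 9.39.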
